A study of Mus musculus with 112 samples.

Results

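Peroxisomes are small organelles, bounded by a single membrane, that shorten very long and branched fatty acids, start the synthesis of ether lipids and release hydrogen peroxide that catalase breaks down. Their matrix proteins are made in the cytosol, recognised by soluble receptors and pulled through a docking complex, after which the receptors are tagged with ubiquitin and extracted again. In the heart, where mitochondria burn most fatty acids, peroxisomes handle the chains that mitochondria cannot start on, and many of their enzymes are textbook targets of the nuclear receptor PPAR alpha and its partner RXR.

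The 33 genes described here were chosen by name for these functions, but with earlier results of these data known. They were 8 genes of import and its receptors, 5 of membrane assembly and division, 4 membrane transporters and channels, 9 of beta-oxidation and chain finishing, 2 of alpha-oxidation, 3 of ether lipid synthesis, and 2 others, a matrix protease and an enzyme that degrades coenzyme A. All 33 had a probe set with that single symbol among the 19938 genes measured, and none was removed for low signal. Their mean log2 signals lay between the 42.6th percentile of all genes (Pex26) and the 99.0th (Phyh).

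Hearts came from individually housed male mice of 7 strains on a control diet or caloric restriction (CR), with 8 mice per strain and diet and 1 Affymetrix array per mouse. The strains were 129S1/SvImJ, BALB/cJ and C57BL/6J (spelled Balbc/J and C57BL6/J in the labels), CBA/J, C3H/HeJ, DBA/2J and the hybrid B6C3F1/J, whose parents are C57BL/6J and C3H/HeJ. The mice were 8 weeks old when the diets began and 22 weeks old at collection, which followed an overnight fast in every group. Restricted 129S1/SvImJ and C57BL/6J mice had their ration cut a further time during the study, and BALB/cJ mice received more food on either diet. DBA/2J CR replicate 7 was left out, since its correlation with the rest of its group was 0.238 against 0.889 to 0.994 for the other arrays. Markers of ventricular cardiomyocytes were bright in every group, whereas markers of atrial cardiomyocytes and of white and brown adipocytes varied widely between mice. In C57BL/6J the mean log2 signal of the 4 brown adipocyte markers ran from 5.77 to 10.5 in control hearts. In bulk tissue, fewer cells of a type and less RNA per cell cannot be told apart.

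Start regions are shown for 4 of the 5 genes that fell under CR, those with a window that holds letters of a GABP site, an NRF1 site or an E-box. The window of the other gene, Pxmp4, holds none of these. Each line gives the 250 bases before a RefSeq start site (build GRCm38.p6), 5′ to 3′ on the strand of the gene. Capitals mark the letters CCGGAAGT or their reverse complement (the core of GABP sites) in Pex11a and Pex6, the letters GCGCA and GCGC with 1 base between them (NRF1) in Nudt7 and CACGTG (E-box) in Lonp2. The Nudt7 and Lonp2 lines belong to the downstream one of their annotated start sites, and in Lonp2 the window of the upstream start holds no E-box.
Pex11a promoter, chr7:79743132-79743381 (- strand): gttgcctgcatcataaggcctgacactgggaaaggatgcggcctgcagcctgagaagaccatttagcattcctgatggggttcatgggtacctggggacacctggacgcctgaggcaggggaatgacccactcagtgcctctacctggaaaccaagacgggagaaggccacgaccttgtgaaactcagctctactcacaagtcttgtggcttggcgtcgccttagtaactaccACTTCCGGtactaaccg
Pex6 promoter, chr17:46711226-46711475 (+ strand): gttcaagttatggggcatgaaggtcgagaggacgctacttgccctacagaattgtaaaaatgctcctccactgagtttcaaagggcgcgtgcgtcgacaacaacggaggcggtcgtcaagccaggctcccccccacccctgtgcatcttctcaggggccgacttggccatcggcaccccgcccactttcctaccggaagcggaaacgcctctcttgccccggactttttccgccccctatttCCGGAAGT
Nudt7 promoter, chr8:114133368-114133617 (+ strand): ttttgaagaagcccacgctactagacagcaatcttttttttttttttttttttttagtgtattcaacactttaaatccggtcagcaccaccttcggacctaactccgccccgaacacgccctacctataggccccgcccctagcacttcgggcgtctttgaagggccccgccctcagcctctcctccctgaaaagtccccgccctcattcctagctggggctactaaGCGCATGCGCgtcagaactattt
Lonp2 promoter, chr8:86651319-86651568 (+ strand): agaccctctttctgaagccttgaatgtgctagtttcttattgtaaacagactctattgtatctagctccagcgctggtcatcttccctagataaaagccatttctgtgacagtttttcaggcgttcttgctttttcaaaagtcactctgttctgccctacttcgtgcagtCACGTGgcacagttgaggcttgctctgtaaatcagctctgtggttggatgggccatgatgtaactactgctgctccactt

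Windows of 300 bases around the start site were found for 27 of the 33 genes, 33 windows in all. The letters of the canonical PPAR site, AGGTCA repeated with 1 base between the copies, on either strand, stood in 0 of the 33 windows and in 0.0396% of 32851 mouse windows, and the looser form with AGGNCA for each copy stood in 0 against 0.381%. The ERR half-site TCAAGGTCA was also found in 0 windows, against 0.423%. The absence of a match says only that these letters do not lie in this window. NRF1 letters stood in 15.2% of the windows of these genes (Abcd3, Nudt7, Pex10 and Pex11g) against 4.60% of all, and the GC box GGGCGG in 75.8% against 35.7%. GABP letters stood in 6.06% of the windows of these genes (Pex11a and Pex6) against 3.89% of all. The E-box stood in 6.06% (Lonp2 and Gnpat, which was not called) against 7.15%. The median GC content was 58.0% in these windows and 52.7% in all.

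Across the 7 strains, 5 of the 33 genes were higher in CR hearts and 5 were lower (limma, adjusted P under 0.05 over all genes), where 7.69% of all genes were called higher and 4.34% lower. Abcd2, Pex10, Pex2, Pex7 and Pxmp2 rose, and Pex11a, Pxmp4, Nudt7, Lonp2 and Pex6 fell. The other 23 genes did not pass, and the median difference of the 33 genes was -0.023 on the log2 scale against -0.0026 for all genes. Apart from Abcd2, the largest called difference was that of Pex11a at 1.17-fold. Abcd2 stands in the study's own list of CR genes of the heart and Pex11a was named in earlier work on these arrays, so neither is independent evidence.

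**Figure D1:**
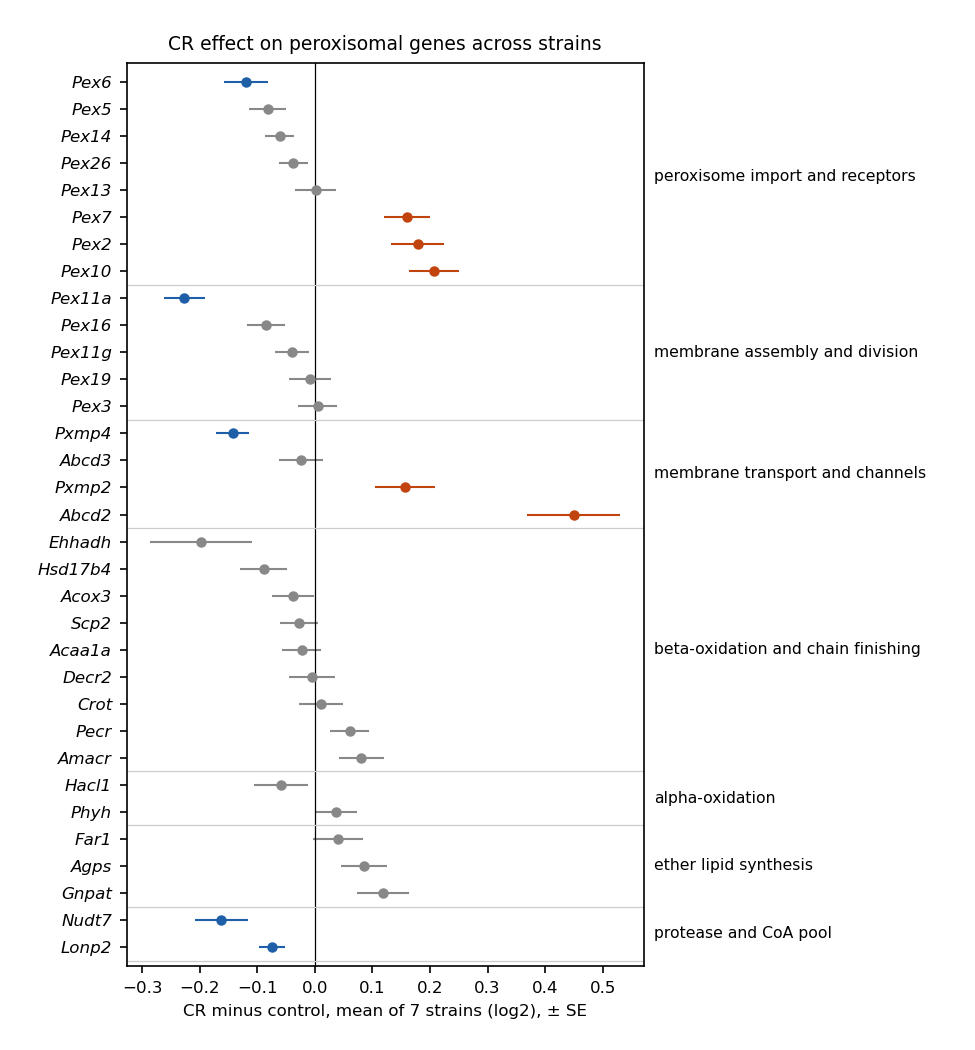
CR minus control log2 signal, averaged over 7 strains (horizontal axis; bars are SE from limma, 56 control and 55 CR hearts), for the 33 genes grouped by role. Orange points passed the threshold as higher in CR and blue points as lower; Abcd2 lies farthest to the right at 0.45 and Pex11a farthest to the left at -0.23.

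The import machinery split in direction. Of its 8 genes 3 rose, 1 fell and 4 did not pass. The risers included Pex10 and Pex2, ring finger ubiquitin ligases of the complex that recycles import receptors. In C57BL/6J, Pex10 ran from 6.64 (median 6.75) to 7.14 in control mice and from 6.38 (median 7.38) to 7.63 in CR mice, and in 129S1/SvImJ from 7.38 (median 7.66) to 8.07 and from 7.71 (median 7.95) to 8.17. The ranges of both diets overlapped in both strains. In C57BL/6J this came from 1 CR mouse, replicate 4, which lay below all of its controls, while the other 7 lay above every control. Across strains Pex10 rose by 0.21 ± 0.0436 (SE, 56 control and 55 CR hearts; adjusted P = 0.000268), with a higher mean in 6 of 7 strains.

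Pex2 rose by 0.18 ± 0.0462 (adjusted P = 0.00396), again in 6 of 7 strains, C57BL/6J being the exception. In BALB/cJ its signal was 6.06 to 6.55 (median 6.31) in control and 6.23 to 6.82 (median 6.71) in CR mice. Pex7 is the receptor for enzymes with the less common type of import signal, among them the thiolase and phytanoyl-CoA hydroxylase. It was the only called gene of the 33 with a higher mean in 7 of 7 strains, by 0.16 ± 0.0397 (adjusted P = 0.00241). Its 129S1/SvImJ values were 7.24 to 7.78 (median 7.63) in control and 7.67 to 7.99 (median 7.75) in CR mice, so the groups overlapped. Pex6, the ATPase that pulls receptors back out of the membrane, fell by 0.12 (SE 0.0386, adjusted P = 0.0273) with a lower mean in 5 of 7 strains. The receptor Pex5, the docking proteins Pex13 and Pex14 and the Pex6 anchor Pex26 did not pass, with differences of -0.082, 0.0020, -0.061 and -0.038.

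Among the genes of membrane assembly and division only Pex11a was called. Pex11a encodes a membrane protein that elongates peroxisomes before they divide, and its gene is a textbook PPAR alpha target. In B6C3F1/J its signal was 7.66 to 8.20 (median 7.96) in control mice and 7.02 to 7.52 (median 7.36) in CR mice. In 129S1/SvImJ it was 7.58 to 7.83 (median 7.71) and 7.20 to 7.42 (median 7.31). In both strains all 8 CR mice lay below all 8 control mice. The across-strain difference was -0.23 ± 0.0358 or 1.17-fold (adjusted P = 8.56e-07), with a lower mean in 6 of 7 strains. In BALB/cJ, the exception, control mice had 7.04 to 7.45 (median 7.22) and CR mice 7.08 to 7.56 (median 7.40). Pex11g, another member of this family, had a difference of -0.040 (adjusted P = 0.426). Pex3, Pex16 and Pex19, which insert membrane proteins, had 0.0048, -0.085 and -0.0079, and none passed.

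The transporters held the largest rise of the 33 genes. Abcd2 carries very long chain acyl-CoA across the peroxisomal membrane. In 129S1/SvImJ its signal was 5.99 to 6.29 (median 6.14) in control and 6.48 to 7.02 (median 6.91) in CR mice, with no overlap, and in CBA/J it was 6.56 to 6.99 (median 6.65) and 6.85 to 7.75 (median 7.26), with 6 of 8 CR mice above every control. The across-strain difference was 0.45 ± 0.0806 or 1.37-fold (adjusted P = 1.45e-05), higher in 6 of 7 strains. C57BL/6J was the exception with -0.022, and there Abcd2 ran from 6.28 to 8.67 in control and from 6.71 to 8.97 in CR mice. Adipocyte marker means were lower in CR hearts of that strain. The brown adipocyte mean was 1.82 lower in CR than in control hearts on the log2 scale and the white adipocyte mean 1.30 lower. In the mouse with the highest Abcd2 signal, CR replicate 4, those means were 9.78 and 8.95. With the atrial, white and brown adipocyte marker means as covariates (added after the data were seen for the fits of single strains) the C57BL/6J difference of Abcd2 was 0.29 and did not pass (adjusted P = 0.807), and the across-strain difference was 0.47 (adjusted P = 1.42e-11). In 129S1/SvImJ the CR minus control differences of these marker means were 0.079 for atrial, -0.038 for white and -0.20 for brown adipocyte markers.

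Abcd3, the related transporter for branched and dicarboxylic chains, did not pass (-0.024, adjusted P = 0.753). Pxmp2, a channel for small solutes, rose by 0.16 ± 0.0521 (adjusted P = 0.0327), with a higher mean in 6 of 7 strains. Pxmp4, a membrane protein of less certain function, fell by 0.14 (SE 0.0292, adjusted P = 0.000165), lower in 6 of 7 strains. In B6C3F1/J Pxmp4 ran from 8.31 (median 8.48) to 8.75 in control and from 8.01 (median 8.21) to 8.37 in CR mice, ranges that overlapped only between 8.31 and 8.37.

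The 2 remaining called genes act on the peroxisomal matrix. Nudt7 hydrolyses coenzyme A inside peroxisomes. It was 8.71 to 9.05 (median 8.97) in control and 8.41 to 8.67 (median 8.54) in CR mice of 129S1/SvImJ, which did not overlap. Across strains it fell by 0.16 (SE 0.0462, adjusted P = 0.00981), lower in 6 of 7. Lonp2, the Lon protease that clears damaged or unprocessed matrix proteins, fell by 0.074 (SE 0.0225, adjusted P = 0.0163). In B6C3F1/J its values were 8.17 to 8.42 (median 8.32) in control and 7.92 to 8.10 (median 7.94) in CR mice, again with no overlap.

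**Figure D2:**
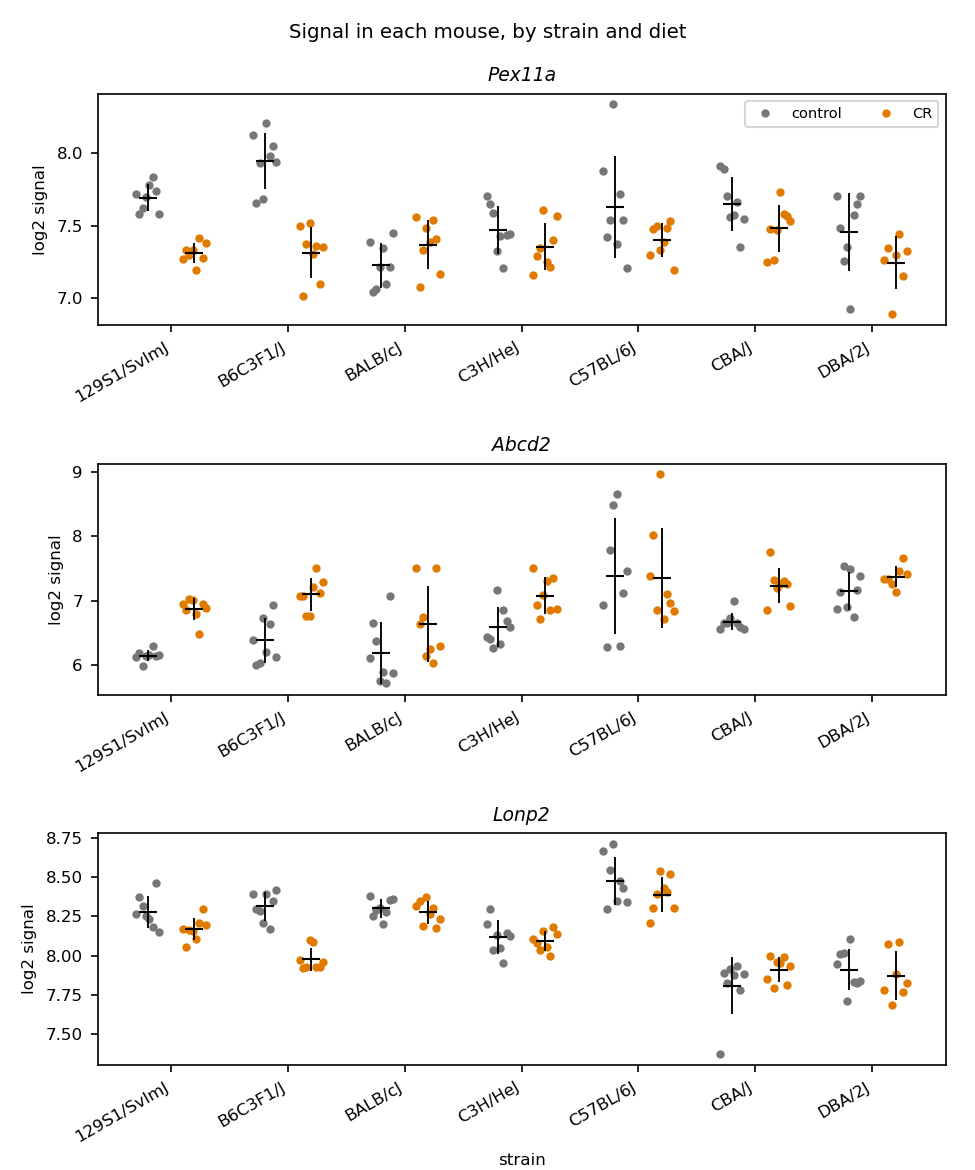
Log2 signal (vertical axis) of Pex11a, Abcd2 and Lonp2 in each mouse, by strain, with control mice in grey and CR mice in orange; horizontal ticks are means and bars are SD (7 mice in DBA/2J CR, 8 in every other group). Control and CR mice are fully apart for Pex11a in 129S1/SvImJ and B6C3F1/J, for Abcd2 in 129S1/SvImJ and for Lonp2 in B6C3F1/J.

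None of the enzymes of lipid breakdown and synthesis was called across strains. None of the 9 genes of beta-oxidation and chain finishing passed (limma), with 3 of 9 at an unadjusted P under 0.05 against 24.9% of all genes, and the same linear model without moderation also called 0. Ehhadh, the bifunctional enzyme that hydrates and dehydrogenates acyl-CoA and a classical target of PPAR alpha, had the largest difference of them at -0.20 ± 0.0886 (adjusted P = 0.141). The other bifunctional enzyme Hsd17b4 had -0.089, the branched-chain oxidase Acox3 -0.037, the thiolases Acaa1a and Scp2 -0.023 and -0.027, and the racemase Amacr 0.081. Crot, which hands shortened chains to carnitine, had 0.011, and the reductases Decr2 and Pecr had -0.0051 and 0.061. In alpha-oxidation, Phyh had 0.037 and the lyase Hacl1 -0.059. The genes of ether lipid synthesis were all on the positive side, Gnpat with 0.12 (adjusted P = 0.0751), Agps with 0.086 (0.157) and Far1 with 0.040 (0.612), and none passed. Gnpat, singled out here after its values were seen, had every CR mouse above every control mouse in 129S1/SvImJ. Of the 24 alternatives, Gnpat was called under 6 (adjusted P = 0.0257 with the marker means as covariates), Hsd17b4 under 5 (lowest adjusted P = 0.000675), Ehhadh under 2 and Agps under 1.

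Some calls were lost without single strains or when the array that was left out was put back. Pex6, Nudt7 and Lonp2 no longer passed without 129S1/SvImJ (limma, adjusted P = 0.171, 0.175 and 0.0888) or without B6C3F1/J (0.276, 0.0513 and 0.513). Pxmp2 also lost its call without 129S1/SvImJ, and under 8 of the 24 alternatives in all. Pex7, Lonp2 and Pxmp2 no longer passed when DBA/2J CR replicate 7 was included (0.0762, 0.147 and 0.0658). Over all genes, including that array took the calls from 1534 to 547 higher and from 865 to 519 lower. Of the 5 endothelial markers 4 fell under CR with a median of -0.17, whereas 0 of 5 atrial, 0 of 5 white and 0 of 4 brown adipocyte markers were called. The part of endothelial cells in these results was not tested. With the atrial and adipocyte marker means as covariates, all 10 genes passed.

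Whether CR differences varied between strains was asked with the strain by diet interaction, which was called for 0.712% of all genes and for 2 of the 33. Rations also differed between strains, so strain and degree of restriction cannot be told apart in this test. Pex11a had an interaction F of 6.33 (adjusted P = 0.00588), with strain differences from -0.63 in B6C3F1/J and -0.38 in 129S1/SvImJ to 0.14 in BALB/cJ. Lonp2 had an F of 5.14 (adjusted P = 0.0280), with -0.34 in B6C3F1/J and 0.10 in CBA/J. Ehhadh, Pxmp4, Hacl1, Decr2, Pex6 and Nudt7 came next, with adjusted P from 0.193 to 0.319. Neither call held when DBA/2J CR replicate 7 was included (adjusted P = 0.436 for Pex11a and 0.625 for Lonp2), after another round of quantile normalization (0.0546 and 0.148) or without B6C3F1/J (0.378 and 0.843). The call for Pex11a also ended without BALB/cJ (0.133). That for Lonp2 also ended after centring each array on its median (0.117), without B6C3F1/J CR replicate 2 (0.0521), without 129S1/SvImJ (0.0581) and without CBA/J (0.0816).

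Within single strains the calls lay in 129S1/SvImJ and B6C3F1/J. In 129S1/SvImJ, 5 of the 33 genes were called, where 6.83% of all genes were. Abcd2 rose by 0.72 ± 0.0717 (SE, n = 8 and 8; limma, adjusted P = 4.61e-06) or 1.65-fold and Pex10 by 0.30 (adjusted P = 0.0457), while Nudt7 fell by 0.40, Pex11a by 0.38 and Pxmp4 by 0.23 (adjusted P = 0.000336, 0.00025 and 0.0298). In B6C3F1/J, 3 of the 33 were called against 0.908% of all genes. Pex11a fell by 0.63 (adjusted P = 0.00285), Abcd2 rose by 0.72 ± 0.144 (0.0203) and Lonp2 fell by 0.34 (0.0203).

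Endothelial markers moved with diet in both strains, and their part in these calls was not tested. The mean of the endothelial markers was 0.38 lower on the log2 scale in CR than in control hearts of 129S1/SvImJ, where control mice had 8.56 to 8.94 and CR mice 8.18 to 8.45, and it was 0.46 lower in B6C3F1/J. The atrial marker mean was 1.49 higher in CR hearts of B6C3F1/J. With the atrial and adipocyte marker means as covariates, Abcd2 and Nudt7 passed in 129S1/SvImJ (adjusted P = 0.0109 and 0.0324) and 0 of the 33 passed in B6C3F1/J (4 at an unadjusted P under 0.05), where the differences were -0.60 for Pex11a (0.205), 0.69 for Abcd2 (0.205) and -0.31 for Lonp2 (0.310). In 129S1/SvImJ, Pex11a had -0.30 (0.115), Pxmp4 -0.14 (0.596) and Pex10 0.23 (0.497) in that fit. The number of all genes called with these covariates was 118 in 129S1/SvImJ and 9 in B6C3F1/J, against 1361 and 181 without them. Without B6C3F1/J CR replicate 2, an array that stood apart from its group, the 3 calls of that strain remained, with -0.59 for Pex11a, 0.72 for Abcd2 and -0.33 for Lonp2.

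In the other 5 strains none of the 33 genes was called. Few genes of any kind were called there, 0% of all genes in BALB/cJ, 0.0552% in C3H/HeJ, 0.251% in C57BL/6J, 0.015% in CBA/J and 0.01% in DBA/2J. At an unadjusted P under 0.05, 5 of the 33 passed in BALB/cJ (6.53% of all genes), 2 in C3H/HeJ (7.34%), 5 in C57BL/6J (12.6%), 5 in CBA/J (6.77%) and 2 in DBA/2J (5.11%), and the methods' t-test after Benjamini-Hochberg also called 0 in each. In 1 fit of all 14 groups, 4 were called in C57BL/6J (Pex10, Amacr, Ehhadh and Hacl1; adjusted P = 0.0105 for Ehhadh), and in 129S1/SvImJ only Pex11a and Abcd2 passed. The share of all genes called in that fit is not given here. Without C57BL/6J CR replicate 4, Pex10 and Amacr were called in C57BL/6J, where calls over all genes went from 50 to 913. Without CBA/J control replicate 1, Abcd2 was called in CBA/J, where calls over all genes went from 3 to 80. Signs differed between strains, with 27 of the 33 differences positive in BALB/cJ (median 0.087) and 25 in CBA/J (median 0.093), against 10 in B6C3F1/J (median -0.075) and 10 in C57BL/6J (median -0.060). With the marker means as covariates 24 were positive in BALB/cJ (median 0.051) and 17 in CBA/J (median 0.0059), and the C3H/HeJ median went from -0.023 to 0.036. Without covariates, the median of all genes lay between -0.0030 and 0.012 in each strain. Differences between strains in these medians were not tested.

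**Figure D3:**
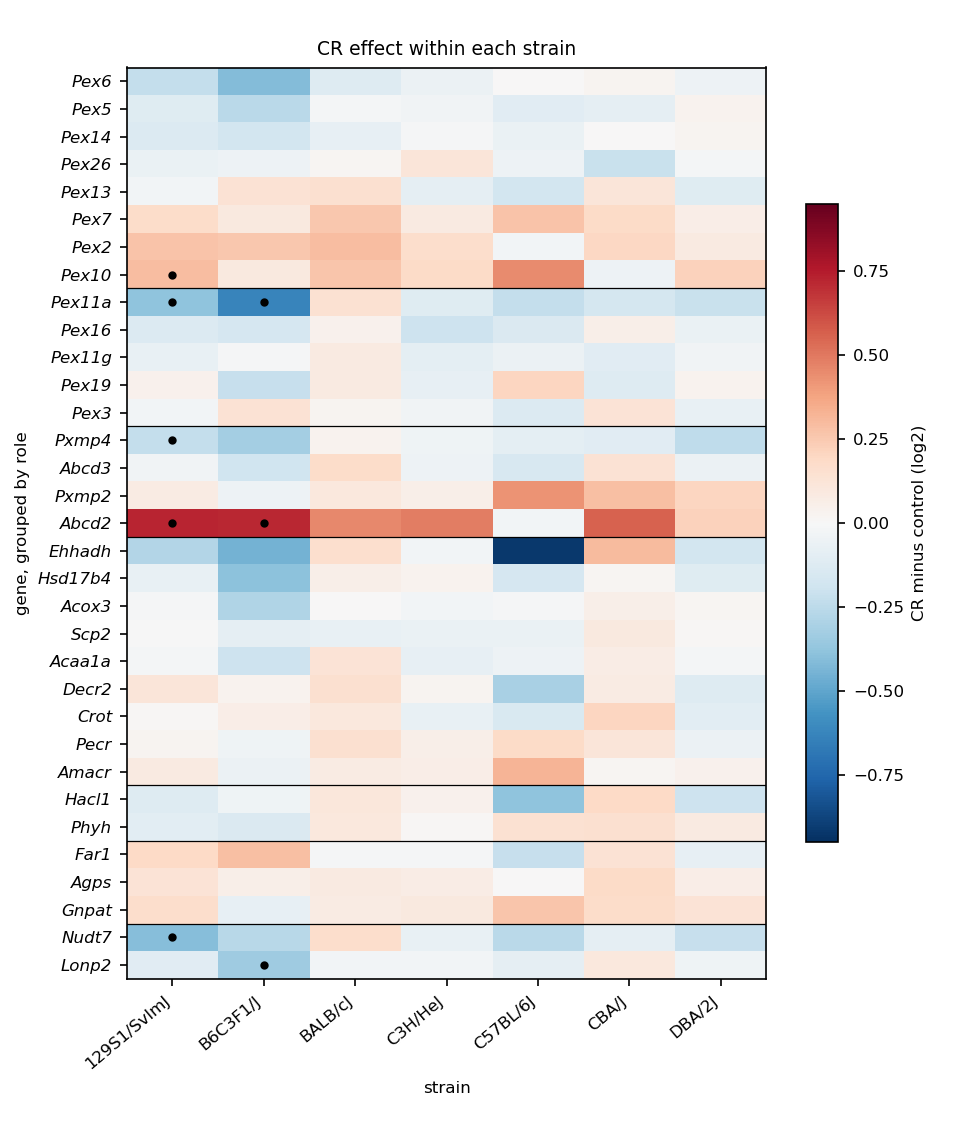
CR minus control log2 signal of the 33 genes (rows, grouped by role) within each of 7 strains (columns), on a colour scale from blue (lower in CR) to red (higher in CR). Black dots mark the 8 differences that passed the threshold, 5 in 129S1/SvImJ and 3 in B6C3F1/J; the darkest blue cell is Ehhadh in C57BL/6J at -0.91, which did not pass.

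By the rule the study used for its strain lists, an unadjusted P under 0.01 in the methods' t-test within a strain, Abcd2 stood in 4 of 7 lists, always higher in CR. Of all genes, 0.466% stood in at least 4 lists. Pex11a and Pxmp4 stood in 2 lists, lower in each, which made 3 of the 33 genes in at least 2 lists, against 5.19% of all genes. In at least 1 list stood 13 of the 33, against 21.2%.

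Control hearts alone were used to ask which genes differed between strains without restriction. In them 25 of the 33 genes differed between strains (limma, F test over 7 strains), where 60.7% of all genes did. Differences in probe sequence between strains and differences in RNA level cannot be told apart on these arrays. Nudt7 had the smallest adjusted P of the 33 (1.23e-25). Its control signal was 9.13 to 10.6 (median 10.1) in C57BL/6J, against 7.66 to 8.36 (median 8.15) in BALB/cJ, and the means of the 2 strains differed by 1.88 or 3.67-fold. The other strains followed each other closely from DBA/2J (8.34 ± 0.334, SD, n = 8) to 129S1/SvImJ (8.95 ± 0.105). The C57BL/6J mean was 1.05 above that of 129S1/SvImJ, the next in order, with no overlap of their mice, while the neighbours further down overlapped. The highest B6C3F1/J control mouse, at 9.14, lay just above the lowest of C57BL/6J. The hybrid B6C3F1/J had 8.78 ± 0.182, between its parents C57BL/6J (10.0 ± 0.51) and C3H/HeJ (8.60 ± 0.276).

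Other genes had their lowest or highest control mean in C57BL/6J. Of those named here, only Pex10 and Pex19 had their largest gap between neighbouring strain means next to C57BL/6J. Pex10 was lowest there, 6.83 ± 0.182 against 7.43 ± 0.199 in B6C3F1/J, the next lowest, and 7.96 ± 0.267 in CBA/J, the highest (adjusted P = 8.09e-13). Pex19, the chaperone of membrane proteins, ran from 8.68 in C57BL/6J to 9.56 in CBA/J (1.75e-10), and Pxmp4 from 8.16 to 8.81 in the same pair of strains (2.59e-12). Lonp2 was highest in C57BL/6J at 8.48 ± 0.154 and lowest in CBA/J at 7.81 ± 0.184 (7.73e-20), the thiolase Acaa1a ran from 6.20 in BALB/cJ to 6.80 in C57BL/6J (8.05e-10), and Decr2 from 7.22 in 129S1/SvImJ to 7.87 in C57BL/6J (1.61e-09). The 8 genes that did not pass were Acox3, Amacr, Gnpat, Agps, Pex5, Pex16, Pex26 and Pex11g. With the marker means as covariates 24 of the 33 differed between strains.

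**Figure D4:**
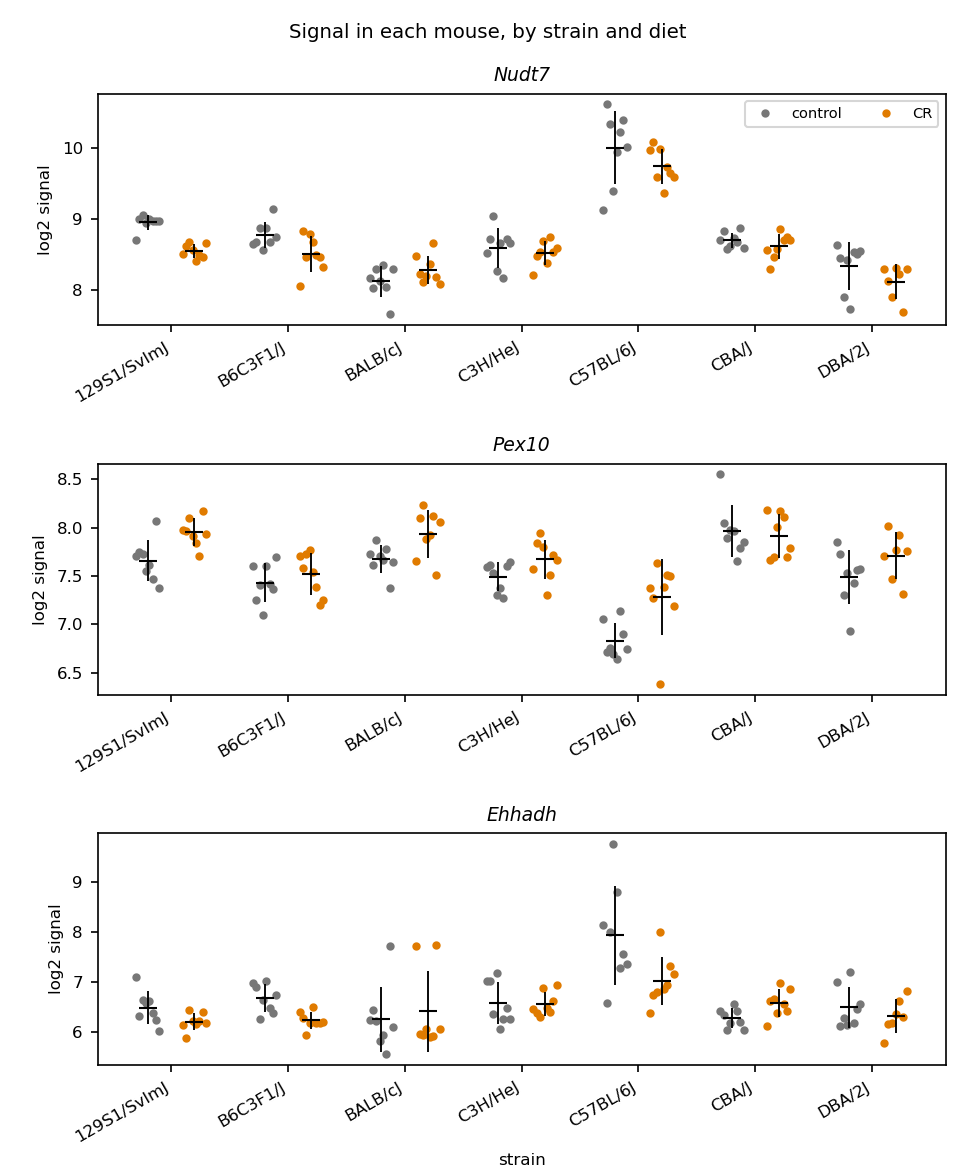
Log2 signal (vertical axis) of Nudt7, Pex10 and Ehhadh in each mouse, by strain, with control mice in grey and CR mice in orange; ticks are means and bars are SD. The C57BL/6J groups have the highest means for Nudt7, C57BL/6J control mice are the lowest group for Pex10, and Ehhadh spreads from 6.58 to 9.75 in C57BL/6J control mice.

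Ehhadh also differed between strains (adjusted P = 3.52e-09), with a control mean of 7.93 in C57BL/6J and 6.25 in BALB/cJ (3.21-fold). Its values in C57BL/6J control mice ran from 6.58 to 9.75. Brown adipocyte markers varied in the same hearts. The C57BL/6J control mice with the highest Ehhadh signals, 9.75 and 8.80, had brown adipocyte marker means of 10.5 and 9.75, and the mice with the lowest, 6.58 and 7.27, had 5.79 and 5.77. In BALB/cJ, 2 CR mice at 7.73 and 7.70 had marker means of 8.73 and 8.67, whereas the other 6 CR mice had Ehhadh from 5.89 to 6.05 and marker means from 4.77 to 5.06. In other strains the mice with high marker means were mixed. CBA/J control replicate 1, an array that stood apart from its group, had a marker mean of 9.14 with Ehhadh at 6.42. CBA/J CR replicate 2 had 8.13 with 6.62. DBA/2J control replicate 5 had 8.31 with 7.19 and C3H/HeJ control replicate 4 had 8.46 with 7.18, each the highest Ehhadh of its group. Among C57BL/6J CR mice, replicate 4 had 9.78 with 7.99, but replicates 7 and 8 had 5.05 with 7.32 and 5.11 with 7.14. Replicates 1 and 2 had 7.63 with 6.37 and 7.27 with 6.74. White adipocyte and atrial means were 9.03 and 11.5 in the C57BL/6J control mouse with the most Ehhadh, and 5.64 and 10.6 in that with the least. With the marker means as covariates Ehhadh still differed between strains (adjusted P = 2.48e-05), and its across-strain CR difference was -0.11 (adjusted P = 0.347). Hacl1 was also highest in C57BL/6J controls, with 8.40 and 7.95 in the 2 mice with the most Ehhadh. Its difference between strains (adjusted P = 0.000475) did not pass with the marker means as covariates (0.318).

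**Figure D5:**
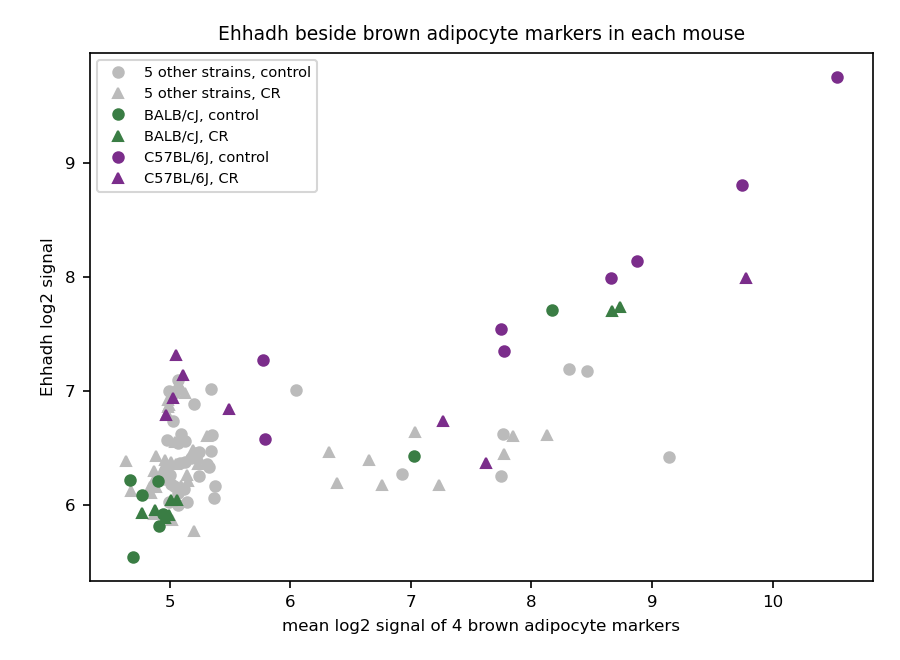
Ehhadh log2 signal (vertical axis) against the mean log2 signal of 4 brown adipocyte markers (horizontal axis), 1 point per mouse, with circles for control and triangles for CR mice. C57BL/6J (purple) and BALB/cJ (green) mice with marker means above 8 have Ehhadh signals of 7.70 or more, the 4 mice of other strains above 8 have 6.42 to 7.19, and most mice of the other 5 strains (grey) lie near a marker mean of 5. Below 8, C57BL/6J CR mice include Ehhadh at 7.32 with a marker mean of 5.05 and at 6.37 with 7.63.

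Other peroxisomal genes, taken from a list of the pathway, also moved in both directions. Of 56 listed genes 47 were measured, and 9 were higher and 6 lower in CR hearts across strains. Of all genes, 7.69% were called higher and 4.34% lower. Catalase (Cat), which breaks down hydrogen peroxide and stands in the study's own heart list, fell by 0.46 (SE 0.0396, adjusted P = 2.76e-17) in 7 of 7 strains. Mlycd, which degrades malonyl-CoA in peroxisomes, mitochondria and cytosol, fell by 0.37 (1.67e-08), also in 7 of 7. The strain by diet interaction was called for Cat and Mlycd (limma, adjusted P = 0.0344 and 0.0261). Dnm1l, the GTPase that cuts both mitochondria and peroxisomes, rose by 0.23 (8.52e-09), the membrane protein gene Mpv17 by 0.20 (1.13e-08), the glutathione transferase Gstk1 by 0.15 (3.72e-05) and Nudt19, another coenzyme A hydrolase, by 0.19 (8.27e-05), each in 7 of 7 strains. With DBA/2J CR replicate 7 included only 1 gene of this list was higher and 2 lower.

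The PPAR receptors and their targets outside the peroxisome were read from a further list, of which 32 of 35 genes were measured. Across strains 3 of the 32 rose and 13 fell, against 7.69% and 4.34% of all genes. The acyl-CoA thioesterases Acot2 and Acot1 fell by 0.61 (SE 0.0682, adjusted P = 1.03e-11) and 0.56 (6.09e-09), the lipoprotein receptor Vldlr by 0.38 (1.15e-06), and the fatty acid uptake genes Slc27a1 and Cd36 by 0.50 (3.42e-06) and 0.17 (1.30e-05). The coactivator Ppargc1a rose by 0.34 ± 0.0558 (2.03e-06), in 7 of 7 strains. Ppara itself, named here after its values were seen, rose by 0.29 (0.000953), as did Rxrg (0.20). The median difference of the list was -0.096, against -0.023 for the 33 peroxisomal genes. The falls were uneven between strains. Fitted alone, 129S1/SvImJ had 16 of the list lower and 3 higher (median -0.22). B6C3F1/J had 13 lower and 0 higher (median -0.38). No gene of the list was called within another strain, where few genes of any kind were, and those medians lay between -0.042 and 0.031. The strain by diet interaction was called for 5 of the list, among them Acot1 and Acot2 (limma, adjusted P = 8.45e-05 and 0.00939). With DBA/2J CR replicate 7 included, 0 genes of the list were called higher across strains (limma) and 3 at an unadjusted P under 0.05, while 9 were called lower. Over all genes that array took the calls from 1534 to 547 higher and from 865 to 519 lower.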

How the data were processed

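Each of 112 hearts was measured on 1 Affymetrix Mouse Gene 1.0 ST array. The authors deposited log2 signals for each probe set, made with RMA in Affymetrix Expression Console (versions not given in the sources used here). RMA equalises the distribution of signals between arrays, which would hide part of a change common to most genes, and its residual background compresses differences of dim genes. Precision is set by how many arrays there are. Labels gave the groups. DBA/2J CR replicate 7 was left out, as the study did.

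Of 35556 probe sets, 21789 had 1 gene symbol, 1621 several and 12146 none in the platform annotation, and the brightest probe set stood for a gene (19938 genes, no filter on signal). Models were fitted with limma 3.58.1 in R 4.3.3 (with the data.table package, version 1.17.8) with a mean for each of 14 groups, on all genes, with Benjamini-Hochberg adjustment and a threshold of 0.05. Within-strain fits used the arrays of 1 strain. Scripts were tested on simulated data. Promoter windows came from RefSeq (GRCm38.p6), and plots from Python 3.11.15, numpy 2.4.6, pandas 2.3.3 and matplotlib 3.10.9.

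The genes, lists and markers were chosen with earlier results of these data known. Named with statistics were all genes past the across-strain threshold, up to 8 with the smallest interaction and up to 8 with the smallest control-strain P, up to 4 called within a strain, and up to 6 of each further list. Ranges over mice were given for up to 8 genes with the smallest across-strain P. Other settings were another normalization or centring, a filter on dim genes, the mean of probe sets, array weights, other variance models, a replicate block, marker covariates and left-out arrays or strains. The P values measure the spread between mice.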

Additional observations from a re-analysis of the deposited data

Results flagged for a closer look

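Of 112 groups of mice tested (8 genes in 14 groups), 11 had 1 mouse farther from the rest than Dixon's 95% limit allows, where chance flags about 1 in 20. CBA/J control replicate 1 was flagged for 3 genes: Pex10 was 8.55 (nearest mouse 8.04), Pex7 6.45 (7.33) and Lonp2 7.37 (7.78). C57BL/6J CR replicate 4 was flagged for Pex10 at 6.38 (7.19) and Pex2 at 7.74 (7.24), and this heart also had a high brown adipocyte marker mean of 9.78. In 129S1/SvImJ, control replicate 1 stood apart for Pex7 at 7.24 (7.57) and Nudt7 at 8.71 (8.95), and CR replicate 6 for Abcd2 at 6.48 (6.79). The other flags were Abcd2 in CBA/J control replicate 5 at 6.99 (6.73), Pxmp4 in C3H/HeJ control replicate 6 at 7.78 (8.26) and Nudt7 in BALB/cJ control replicate 7 at 7.66 (8.04).

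The CR effects of Pex11a and Lonp2 differed between strains by the strain by diet interaction, with adjusted P of 0.00588 and 0.0280 (limma). Strain and ration cannot be told apart there. Neither passed with DBA/2J CR replicate 7 included (0.436 and 0.625), after another quantile normalization (0.0546 and 0.148) or without B6C3F1/J (0.378 and 0.843).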

How the results depend on the processing

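Across 24 alternatives, 5 of the 10 called genes (Abcd2, Pex11a, Pxmp4, Pex10 and Pex2) passed under each, and the sign of the 10 differences changed under 0. The number of genes of the 33 called higher (5) was 3 with DBA/2J CR replicate 7 included, where 547 of all genes were higher instead of 1534. The number called lower (5) was 8 with array weights, where 2044 of all genes were lower instead of 865, 8 without CBA/J, 2 without 129S1/SvImJ and 2 without B6C3F1/J. Pxmp2 lost its call under 8 alternatives, with adjusted P up to 0.148. The number with a strain by diet interaction (2) was 0 with DBA/2J CR replicate 7, 0 after another quantile normalization and 0 without B6C3F1/J (limma; 4, 8 and 6 at an unadjusted P under 0.05). It was 1 with centred arrays, without B6C3F1/J CR replicate 2, and without 129S1/SvImJ, BALB/cJ or CBA/J. It was 22 with array weights, where 26.1% of all genes had an interaction, and 10 without all 6 arrays that stood apart, where 9.18% had. The cause of these shifts was not tested.

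With DBA/2J CR replicate 7, other peroxisomal genes gave 1 higher and 2 lower, and the PPAR list 0 higher (limma; 3 at an unadjusted P under 0.05). In 1 fit of all 14 groups, the calls among the 33 genes numbered 8 for B6C3F1/J, 4 for C57BL/6J and 2 for 129S1/SvImJ. The share of all genes called in that fit is not given here. Chosen after the data were seen, marker covariates left 2 in 129S1/SvImJ and 0 in B6C3F1/J (4 at an unadjusted P under 0.05). Leaving out C57BL/6J CR replicate 4, chosen likewise, gave 2 in C57BL/6J, where calls over all genes went from 50 to 913. Leaving out CBA/J control replicate 1, also chosen likewise, gave 1 in CBA/J, where calls over all genes went from 3 to 80.

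The labels gave same-numbered control and CR mice no link beyond the number. Of 55 such pairs 28 correlated above 0.1, from -0.441 to 0.674. Their mean correlation was highest in BALB/cJ, 0.204 against -0.00867 for pairs with other numbers. Only in C3H/HeJ was it below that of other pairs (-0.0739 against 0.0128). Whether same-numbered mice shared a batch was not tested. With the replicate number as a block, 5 of the 33 genes were higher and 5 lower, 2 had an interaction and 25 differed between control strains, and over all genes 1558 were higher and 873 lower against 1534 and 865. The number of arrays and the signal of dim genes over background limit what could be detected.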
